A study of Neurospora crassa with 12 samples.

Results

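Of 5452 Neurospora crassa genes with a mean of at least 50 normalised counts at some time point, 100 stayed between 0.5 and 2 times their untreated level after 5 and 30 min of HSAF and were at least 3 times higher after 60 min. These genes are described here, out of 9729 annotated genes (those with an NCU identifier) in the deposited tables. HSAF (heat-stable antifungal factor) is a polycyclic tetramate macrolactam made by the bacterium Lysobacter enzymogenes. Mycelium of the wild type strain FGSC2489 was left untreated (HSAF-0) or given 40 μM HSAF for 5 min (HSAF-5), 30 min (HSAF-30) or 60 min (HSAF-60), and each group held 3 RNA-seq libraries. They carry the letters A to C, D to F, G to I and J to L in the order of time. The labels give an age of 48 h after inoculation, whereas the study's methods describe a culture of 24 h before HSAF was added. No group kept for the same minutes without HSAF is among the 12 libraries, so HSAF and elapsed time cannot be told apart.

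The genes were chosen from the values themselves. Counts were divided by median-of-ratios size factors, averaged within each group, and 5 was added to each mean. A gene was taken when the ratio to HSAF-0 was 3 or more at 60 min and lay between 0.5 and 2 at both 5 and 30 min. All contrasts between the time points were therefore used in the choice, and the ratios are a description without a test. All 100 genes are annotated as protein coding, and 8 of them carry a symbol in the RefSeq table (NC12 assembly), against 16.1% of the 5452 genes. The other 92 are named here by their NCU identifier. No role is given for most of the group, and the study's own annotation is cited only for NCU02946.

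In a fungal mycelium, transcripts of stress and transport genes can change within minutes of a treatment, while others need newly made regulators and appear later. Filamentous fungi make many glycoside hydrolases, enzymes that cut sugar chains outside the cell or trim them on proteins, and they store the sugar trehalose. N. crassa also has well known gene sets for asexual spores (conidia) and for sexual fruiting bodies.

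The libraries differed in depth. Total counts lay between 11517462 and 15698448, but a pair of unannotated features (newGene_189 and newGene_190) held between 25.2% and 93.7% of them, and counts on the annotated genes ranged from 790513 in library I of HSAF-30 to 11265740 in library J of HSAF-60. In library I a single count was worth 5.33 normalised counts, against 0.351 in library J. Of the 100 genes, 22 had no count in library I and 3 to 6 had none in the other libraries of HSAF-30, so the limit at 30 min was measured coarsely for the weak genes. The median log2 ratio to HSAF-0 over all 5452 genes was -0.14 in library I and between -0.066 and 0.052 in the other 11 libraries. In bulk mycelium, a larger share of a kind of cell and more RNA per cell cannot be told apart. Genes linked to conidia or to sexual development were checked for this reason. The summed level of 7 conidial genes (con-6, con-8, con-10, con-13, eas, ccg-1 and fl) was 627 to 969 normalised counts in HSAF-0, 2195 to 3508 in HSAF-5, 1131 to 2929.8 in HSAF-30 and 1358 to 2596 in HSAF-60. Most of this sum was ccg-1, at 435 to 801 in HSAF-0 and 1265 to 2348 in HSAF-60, so the sum mainly followed this gene. The ratio of HSAF-60 to HSAF-0 was 2.94 for ccg-1 and 3.45 for con-10, but 0.648 for con-8, 0.830 for eas, 0.691 for fl and 0.882 for con-6, and con-13 had no count in HSAF-0. The summed level of 5 genes of sexual development (mfa-1, ccg-4, poi-2, sub-1 and asd-1) was 401 to 1087 in HSAF-0 and 288 to 895 in HSAF-60. It was 308 to 1167 in HSAF-5 and 140 to 589 in HSAF-30. In HSAF-0 most of this sum was asd-1, at 309 to 1012. The part of such cells in the late genes was not tested.

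Genes with a late increase made up a small share of all genes that were high at 60 min. Of the 5452 genes, 632 had a ratio of 3 or more at 60 min. Among these, 279 were already above a ratio of 2 at both 5 and 30 min, 177 at 30 min alone and 25 at 5 min alone. A further 51 lay below 0.5 at one or both of the earlier times without exceeding 2. The remaining 100, or 15.8%, are the late genes. Their ratio at 60 min ran from 3.02 to 54.2 with a median of 4.43. It was 10 or more in 14 genes and below 5 in 57. At 5 min their ratios ran from 0.502 to 1.97 with a median of 1.06, and at 30 min from 0.513 to 1.97 with a median of 1.20. The allowed band was filled to its edges. At 30 min, 33 genes had a ratio above 1.5 and 12 one below 0.67, so many of the genes were not flat before 60 min.

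**Figure D1:**
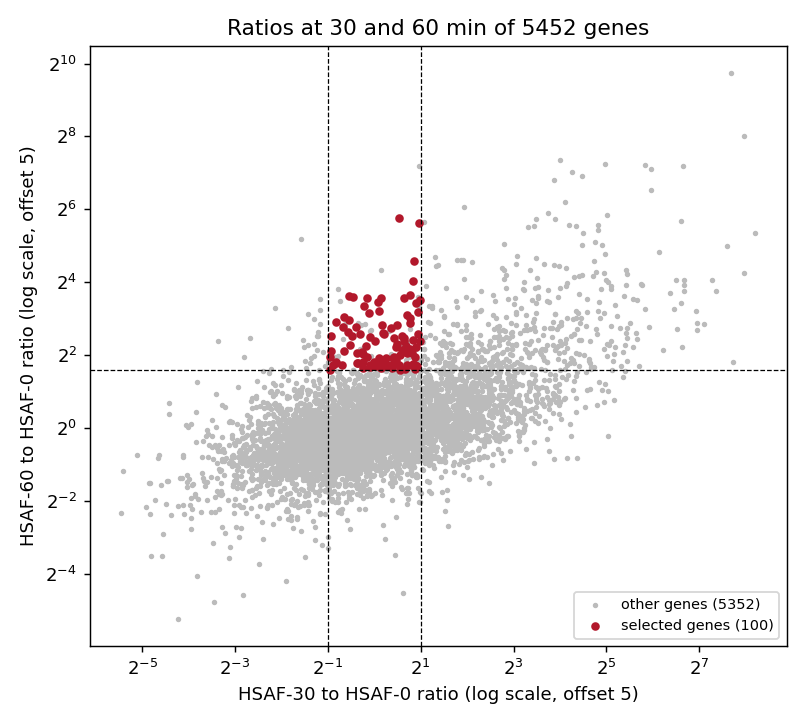
Ratio to HSAF-0 at 30 min (horizontal) and 60 min (vertical) for 5452 genes, both on log scales with 5 added to each mean. Red points are the 100 selected genes and grey points all others. Dashed lines mark the limits of 0.5, 2 and 3. Red points fill the band from 0.513 to 1.97 at 30 min and reach 54.2 at 60 min.

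The genes closest to the limit were alike on both sides. Just inside it lay NCU04254, NCU02370 and NCU01658, with ratios of 3.02, 3.03 and 3.08 at 60 min. Just outside lay NCU10696 (ro-10) at 2.99 and NCU08891 and NCU00870 at 2.98 each. The gene ro-10 belongs to the ropy genes, which are known in N. crassa for nuclear movement along hyphae.

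The increase was seen in all 3 libraries of HSAF-60, to a different extent. In library L, 91 of the 100 genes were at a ratio of 3 or more to the HSAF-0 mean, in library K 82, and in library J 59. The median log2 ratio was 2.40 in L, 2.10 in K and 1.72 in J, and it lay between -0.089 and 0.23 in the other 9 libraries. All 3 libraries together were at 3 or more for 41 genes, which held for 338 of the 5452 genes. For 99 genes every HSAF-60 library lay above every HSAF-0 library, which held for 31.7% of the 5452 genes. The exception was NCU16778, at 24.6 normalised counts in J against 28.8 in B. For 75 genes the HSAF-60 libraries lay above all 9 others, which held for 7.76% of the 5452 genes. In the other 25 genes the highest earlier library was I or G in 7 genes each, E in 5, H in 4 and F in 2, and the lowest HSAF-60 library was J in 20.

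**Figure D2:**
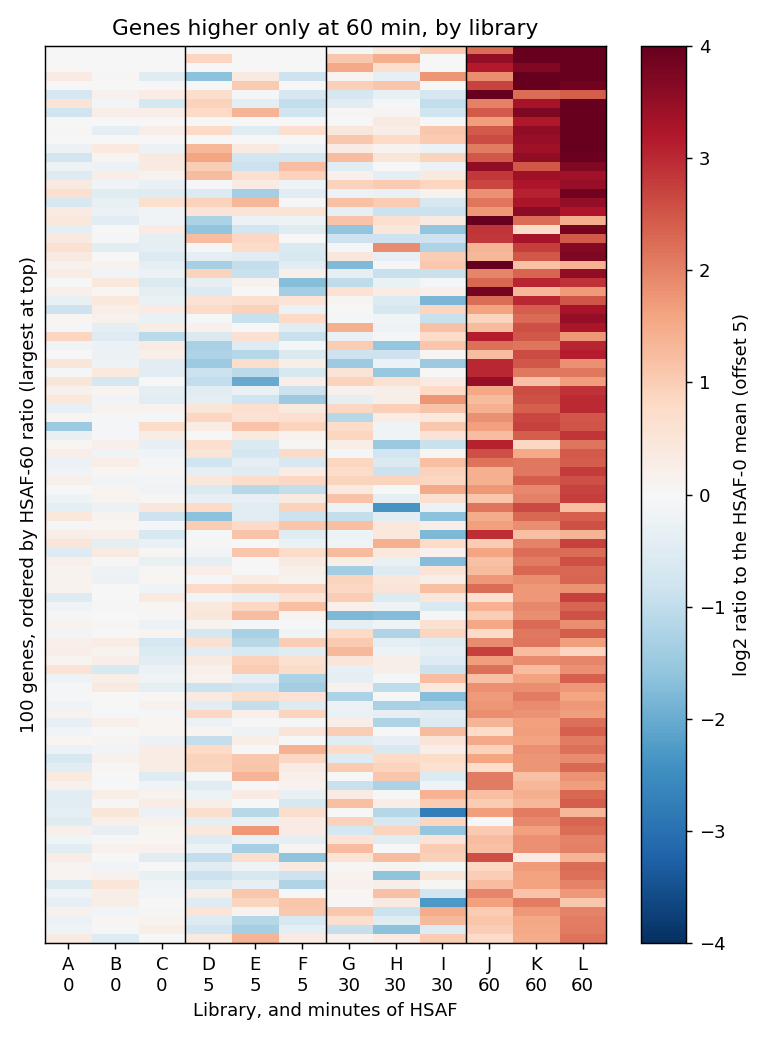
Log2 ratio of each library to the HSAF-0 mean (5 added to both) for the 100 genes, 1 row per gene, ordered by the ratio at 60 min. Columns are the 12 libraries with the minutes of HSAF below the letter. The darkest red stands for log2 ratios of 4 and above. Columns J, K and L stand out, with medians of 1.72, 2.10 and 2.40, and a few rows are darkest in J.

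As the rule used these contrasts, a fit across all genes is given only as a description. With edgeR's quasi-likelihood model on 7582 genes (Benjamini-Hochberg adjusted p under 0.01 and a change of at least 2-fold), 88 late genes passed as higher in HSAF-60 than in HSAF-0, beside 9.38% of all genes tested. Against HSAF-30, 70 were called higher (13.4% of all genes), and against HSAF-5, 72 (8.65%). Their median log2 fold change in HSAF-60 was 2.33 against HSAF-0, 2.11 against HSAF-30 and 2.35 against HSAF-5, with medians over all tested genes of 0.0020, 0.095 and 0.076. With some single libraries left out, fewer late genes were called, and calls over all genes fell as well. Without others the calls rose, as without H, where 96 late genes and 855 genes in all were called against HSAF-0. Without J, 80 late genes were called against HSAF-0, but 786 genes in all. The largest falls were as follows. Against HSAF-0, 52, 48, 42 and 51 late genes were called without A, B, C or L. Over all genes these counts were 431, 452, 388 and 443, in place of 711. Against HSAF-30, 44 late genes were called without L, beside 805 genes in all in place of 1014. Against HSAF-5, 47, 49 and 46 late genes were called without D, E or L. Over all genes these counts were 365, 425 and 360, in place of 656. In HSAF-30 against HSAF-0, 2 of the late genes were called higher (19.1% of all genes), namely NCU06793 and NCU09956. Both had no count in HSAF-0, and the added 5 kept their ratio under 2 at 30 min.

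A set of genes went from no count to a clear signal. In 6 of the 100 genes (NCU01011, NCU09072, NCU00607, NCU06793, NCU05849 and NCU09956) all 3 HSAF-0 libraries were at 0 counts. NCU01011 had no count in HSAF-5, at most 5.33 normalised counts in HSAF-30, and 18.6, 146 and 634 in libraries J, K and L. Against a floor of 3 counts over the HSAF-0 group, it was at least 335-fold higher at 60 min. NCU01011 was highest in library L, without which the bound was 66.4-fold. NCU09072 reached 52.3, 291 and 381 normalised counts and was at least 271-fold higher, or 148-fold without L. NCU00607 reached 39.7, 60.5 and 246 and was at least 151-fold higher, or 58.6-fold without L. For NCU05849, NCU06793 and NCU09956 the same bounds were 66.5-fold, 65.1-fold and 63.2-fold, and 24.2-fold, 53.1-fold and 41.6-fold without L. Without J the bounds of these 6 genes were higher, from 91.2-fold to 624-fold. The height of the bounds thus depended on single libraries, on L most of all. In each of these genes J, K and L lay above the 9 other libraries, and each already had raw counts in HSAF-30, at most 12 in a library. The floor covers counting error only.

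Among the other strong increases, NCU09050 went from 14.3, 11 and 6.05 normalised counts in A, B and C to 50.5, 272 and 423 in J, K and L. Library I was already at 48.0, the highest of the 9 earlier libraries, and without L the ratio was 10.6 in place of 16.4. NCU08655 went from 15.9, 10.3 and 19.3 to 105, 232 and 358, and all earlier libraries were at or below 37.3. NCU16320 and NCU04451 were at means of 0.913 and 3.66 in HSAF-0 and at 59.2 ± 40.1 and 97.7 ± 49.6 in HSAF-60 (SD, n = 3). Both were highest in L, and without it the ratio of NCU16320 was 7.04 in place of 10.9. In the stronger gene NCU03110 the course was steadier, with 138, 94.5 and 84.7 in HSAF-0, 197 to 223 in HSAF-30, and 703, 1035 and 1237 in HSAF-60. Its ratio was 9 at 60 min and 1.93 at 30 min, just inside the limit.

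The 8 genes with a symbol showed how differently the late increase could run. The gene ccg-9 (NCU09559) is a clock-controlled gene that encodes a trehalose synthase. It was at 82.5, 69.9 and 72.1 normalised counts in A, B and C, at 87.6 to 144 in HSAF-5, at 53.3 to 61.9 in HSAF-30, and at 286, 271 and 251 in J, K and L. The groups of 0 and 60 min lay far apart for their spread, with means of 74.8 ± 6.74 and 269 ± 17.5 (SD, n = 3), and each HSAF-5 library also exceeded the HSAF-0 libraries. The gene fmf-1 (NCU09387) encodes an HMG-box transcription factor needed for female and male fertility. Its level was 63.4, 48.6 and 58.9 in HSAF-0 and 144, 303 and 299 in HSAF-60, above all earlier libraries, of which I was highest at 85.3.

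Of the 8 genes with a symbol, 3 belong to glycoside hydrolase families. Family 47 holds alpha-mannosidases that trim sugar chains of proteins, family 28 polygalacturonases that cut pectin, and family 31 alpha-glucosidases. The gene gh47-2 (NCU03134) was at 3.17, 12.3 and 13.2 normalised counts in HSAF-0 and at 39.3, 72.8 and 138 in HSAF-60. Its highest earlier value was 22.6 in library E. The gene gh31-1 (NCU09281) was at 15.9, 12.3 and 3.85 in HSAF-0, at most 6.64 in HSAF-5 and HSAF-30, and at 38.6, 71.8 and 76.9 in HSAF-60, so its low middle times were near the lower limit with ratios of 0.538 and 0.526. The gene gh28-1 (NCU02369) was at 77.7, 83.6 and 56.7 in HSAF-0 and at 645, 132 and 337 in HSAF-60. It did not overlap with the earlier libraries, but K was close to library D of HSAF-5 at 119, and without J the ratio was 3.06 in place of 4.85. Of 31 genes with a symbol of this kind among the 5452, 6 were at a ratio of 3 or more at 60 min. This class was looked at after the values had been seen.

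The gene fdh (NCU03813) encodes formate dehydrogenase, which oxidises formate to CO2. It was at 220.5, 182 and 131 normalised counts in HSAF-0, at 261, 421 and 347 in HSAF-30 and at 1080.3, 227 and 468 in HSAF-60. K lay below libraries E, G, H and I, so the groups overlapped, and without library J the ratio fell from 3.26 to 1.92. The gene was not among the 88 called. The gene prk-6 (NCU07880) was at 17.4, 19.2 and 15.4 in HSAF-0, at 5.31 to 9.94 in HSAF-5 and at 68.8, 79.0 and 139 in HSAF-60, with library I at 58.7. The gene app (NCU04533) was at 11.1, 4.11 and 6.05 in HSAF-0 and at 199.7, 52.3 and 28.2 in HSAF-60, and without J its ratio fell from 8.14 to 3.62. Of these genes, app, gh28-1, prk-6 and gh31-1 overlap a neighbouring gene in the RefSeq annotation. So do 24 of the 100 in all. Whether reads were counted by strand is not given in the sources used here, and reads of such pairs may be shared. NCU09282, which overlaps gh31-1, was stronger, at 114 to 119 normalised counts in HSAF-0 and 463 to 729 in HSAF-60. Its ratio at 60 min was 5.12. How far its reads enter the values of gh31-1 was not tested.

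**Figure D3:**
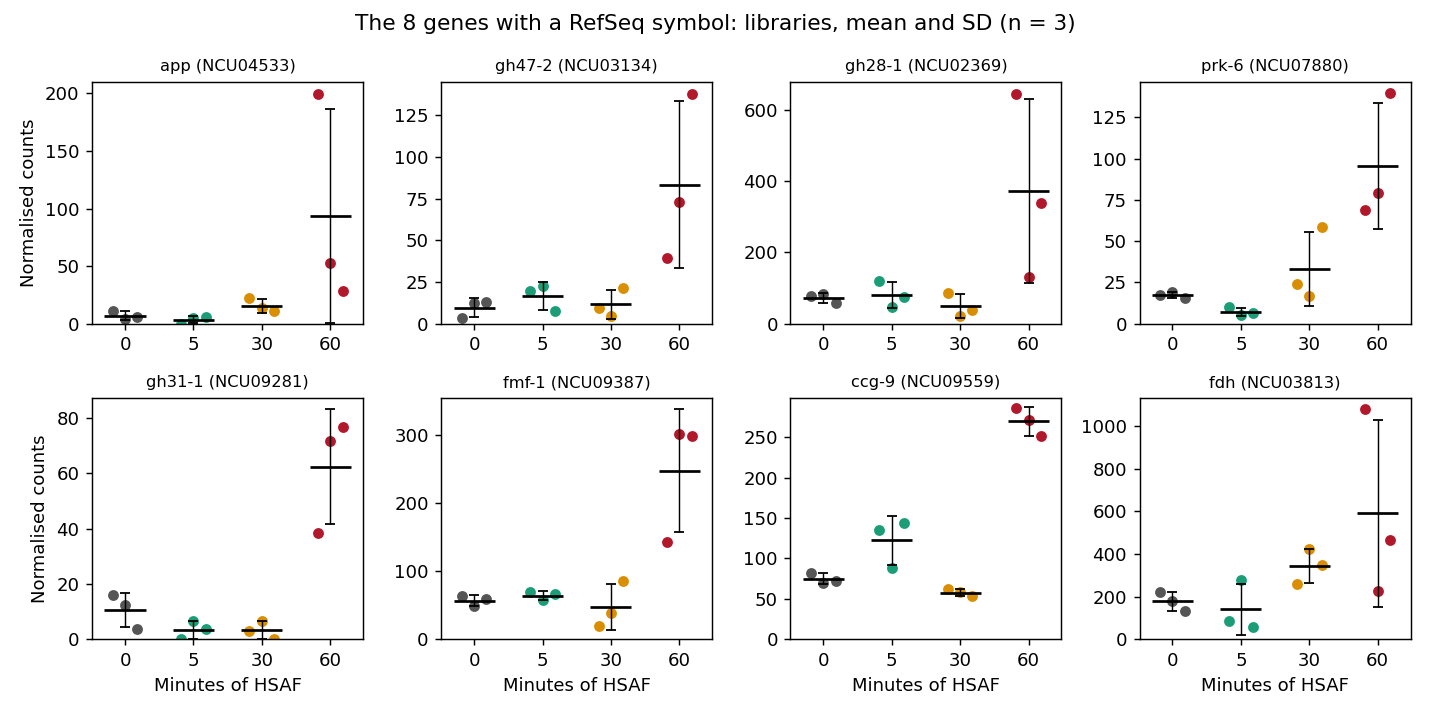
Normalised counts (vertical, from 0) by minutes of HSAF for the 8 late genes with a RefSeq symbol. Points are libraries in the order of their letters, thick lines group means and thin bars the SD (n = 3). At 60 min the points of ccg-9 lie between 251 and 286, whereas those of app, gh28-1 and fdh are spread widely with J highest.

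Some abundant transcripts belonged to the group as well. The 6 with the highest normalised counts at 60 min were NCU08340, NCU01587, NCU02404, NCU04342, NCU10572 and NCU04639. Corrected for length, their deposited FPKM (fragments per kilobase of transcript, scaled to the size of the library) went from means of 57.7 to 191 in HSAF-0 to means of 310.0 to 936 in HSAF-60. On FPKM they stood above at least 94.5% of annotated genes in HSAF-0 already, and the median late gene moved from percentile 50.7 to 76.3. NCU02404 was at 2397, 2230.4 and 1844 normalised counts in HSAF-0, at 1722 to 3328 in HSAF-5 and HSAF-30, and at 6376, 10468 and 7829 in HSAF-60. NCU04342 was at 879 to 1609 in HSAF-0 and at 9899.6, 5308 and 5286 in HSAF-60, above library G at 1743. In NCU01587 the HSAF-60 values were 3703, 7611 and 15249, and J lay below G at 4578. Without L its ratio was 2.46 in place of 3.84. In NCU08340 they were 4633, 8877 and 14585, and J lay below G and I. NCU10572 (4401, 5282 and 3827) was above every earlier library, and NCU04639 (1751, 3246 and 5181) was not, as E was at 2087. The last pair overlap other annotated genes.

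Several genes reached nearly the same level in all 3 libraries of HSAF-60. NCU00350 was at 1231, 1268 and 1161 normalised counts against 263 to 443 in HSAF-0, with library I at 464. NCU07402 was at 841, 908 and 819 against 219, 238 and 273, and it lay lower in HSAF-5 and HSAF-30 (96.2 to 208) than in HSAF-0. NCU05160 was at 3067, 2977 and 3652 against 577 to 809.7. These were chosen after their values were seen, for a highest library less than 1.25 times the lowest, as were NCU10246 and ccg-9.

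More often the HSAF-60 libraries were spread. The median ratio of the highest to the lowest of J, K and L (5 added) was 2.53 in the late genes, against 1.5 among A, B and C in the same genes. Over all 5452 genes the medians were 1.52 at 60 min and 1.37 at 0 min. Library L was the highest of the 3 in 64 late genes and J the lowest in 69. Over all 5452 genes L was highest in 36.9% and J lowest in 40.3%. In the 532 other genes with a ratio of 3 or more, 63.2% were highest in L and 84.2% lowest in J. The median log2 ratio of L to J was 0.96 in the late genes, 0.99 in these 532 genes and 0.012 over all genes. The share of newGene_189 and newGene_190 was 27.1% in J, 66.1% in K and 25.2% in L. Its part in the spread was not tested.

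**Figure D4:**
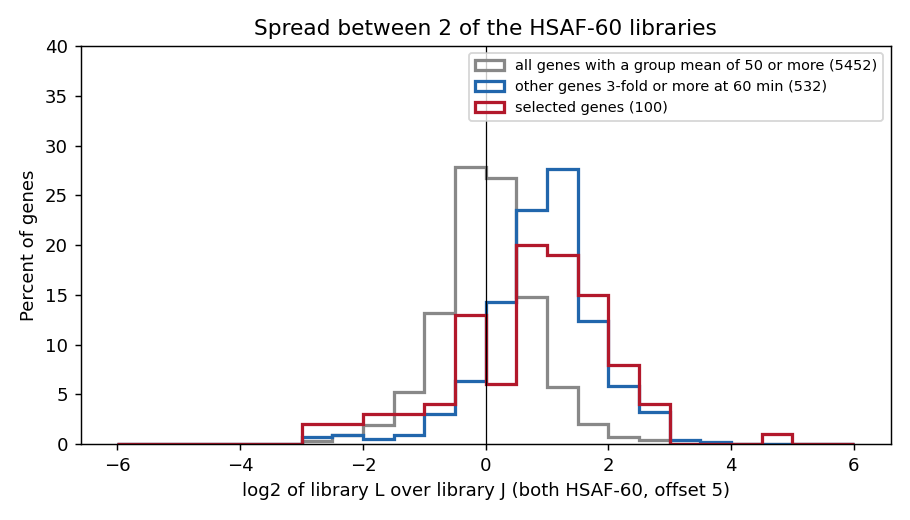
Distribution over genes of the log2 ratio of library L to library J, both of HSAF-60, with 5 added. Lines are percent of genes per bin of width 0.5 on the log2 scale, for the 100 selected genes (red), the 532 other genes with a ratio of 3 or more at 60 min (blue) and all 5452 genes (grey). The medians are 0.012 (grey), 0.96 (red) and 0.99 (blue). Above 0 lie 73 of the 100 red genes, 87.4% of the blue genes and 50.7% of the grey.

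The opposite order, with J far above K and L, was seen in 8 late genes, where J was at least 2 times both others. They are NCU06063, NCU04533 (app), NCU08441, NCU06061, NCU04963, NCU06153, NCU04480 and NCU03813 (fdh), and 5.19% of all 5452 genes met the same condition. In NCU06063 the HSAF-60 values were 212, 32.8 and 37.7 normalised counts, against at most 7.95 in the 9 earlier libraries. In NCU06061 they were 726, 123 and 160.4 against at most 72.1, and in NCU08441 364, 46.2 and 54.4 against at most 42.7. K and L still lay above all earlier libraries in these 3 genes. Library J carried most of the height of these means, and without it the ratio of NCU06063 was 4.77 in place of 12.4.

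Along the chromosome, some late genes stood next to other genes that were high at 60 min. By the order of genes in RefSeq, 31 of the 100 stood next to a gene that was also at a ratio of 3 or more at 60 min, late or not. This held for 13.9% of the 5452 genes and for 30.8% of the 532 other genes with such a ratio, so it was not particular to the late genes. Next to each other stood 6 late genes, in 3 pairs, NCU09955 with NCU09956, NCU07401 with NCU07402 and gh28-1 with NCU02370. No share over all genes was counted for such pairs. NCU09955 and NCU09956 shared their course, at 35.1, 92.3 and 213 normalised counts and at 25.3, 51.3 and 78.8 in J, K and L. Without L the ratio of NCU09955 was 6.73 in place of 12. In the pair NCU07401 (328, 529 and 859) and NCU07402 (841, 908 and 819) the libraries were ordered differently, and in gh28-1 and NCU02370 (193, 279 and 419) too.

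Other neighbours with a ratio of 3 or more at 60 min missed the limits at 5 or 30 min. NCU06062 lies between the late genes NCU06061 and NCU06063. It was at 188, 37.9 and 25.3 normalised counts in J, K and L, again highest in J, and missed the rule by a ratio of 0.444 at 30 min. NCU08440 next to NCU08441 was at 716, 170.3 and 139.9 in HSAF-60 and at 46.0 to 64.4 in HSAF-0. It was at 20.3 to 25.8 in HSAF-5 and at 0 to 11.7 in HSAF-30, and its ratios of 0.450 and 0.157 both lay below the limit of 0.5. NCU10039 (105, 71.8 and 43.4) stands between NCU10040 (1510.0, 1796 and 932), with ratios of 2.10 at 30 min and 50.7 at 60 min, and NCU10038 (158, 85.1 and 77.8), with a ratio of 0.499 at 30 min. NCU06792 beside NCU06793 was higher before, going from at most 1.65 in HSAF-0 to 17.9 to 26.7 in HSAF-5, 118 to 267 in HSAF-30 and 502 to 1113 in HSAF-60. NCU02946 (221, 259 and 421), a mitochondrial carrier domain protein in the study's annotation, had ratios of 1.97, 1.61 and 4.24 at 5, 30 and 60 min. Its neighbour NCU02945 peaked early, with ratios of 36.3, 15.6 and 4.70.

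Each gene was compared with the median profile of the 100 over the 12 libraries (Pearson's r of log2 normalised counts plus 5, a description). The rule set the course of the genes, and each gene is part of the profile, so high values were largely set by the choice. The correlation ranged from 0.513 for fdh to 0.977 for NCU09956 with a median of 0.861. Closest were NCU09956, NCU00607, NCU05849, NCU09072 and NCU01011, with values of 0.963 and above, all of them genes without a count in HSAF-0. Among genes outside the group, NCU06400 (0.967), NCU02788 (ric8, 0.949) and NCU06222 (0.942) were most like the median profile. The gene ric8 encodes a guanine nucleotide exchange factor of G proteins. It was at a ratio of 13.9 at 60 min, but at 0.423 at 5 min, below the limit.

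Of 11 lists of genes fixed by symbol, 2 had a late gene in them. Late genes made up 1.72% of the 116 list genes with a sufficient mean, beside 1.83% of all 5452 genes, so the count is near the background. They were ccg-9 among 24 tested genes of conidiation and fmf-1 among 11 of sexual development. With the edgeR fit of HSAF-60 against HSAF-0, which called 9.38% of all genes higher and 3.53% lower, 3 of the conidiation genes were called higher (ccg-9, ccg-16 and csp-2). In the list of sexual development fmf-1 was called higher and asm-1 lower. Of 29 genes of cell wall synthesis and remodelling, 6 were called higher (chs-1, chs-3, chs-4, gel-4, gh18-5 and ncw-5) and 1 lower (acw-6). Of 22 genes of carbon derepression and plant polymer use, 1 was called lower (vib-1). Of 21 genes of nitrogen, sulfur and phosphate acquisition, 1 was called higher (pho-2) and 1 lower (nit-3), and of 16 genes of oxidative stress 1 was called higher (cat-2). Of 7 genes of heat shock and protein folding, 2 were called lower (hsp70-2 and hsp88). Of 7 genes of incompatibility and cell death, 1 was called higher (tol) and 1 lower (vib-1). Among 7 genes of acetate use, 4 of ergosterol and azole response and 2 of autophagy, the one call was of sah-2, which was lower. Beside a median log2 fold change of 0.0020 over all genes, the medians were 0.78 for autophagy, 0.44 for the cell wall and 0.15 for incompatibility. They were -0.059 for carbon derepression, -0.17 for conidiation, -0.33 for sexual development and -0.36 for heat shock. The lowest were -0.61 for oxidative stress, -0.63 for nutrient acquisition, -1.01 for acetate use and -1.28 for ergosterol. In HSAF-30 against HSAF-0, 19.1% of all genes were called higher and 15.2% lower. There 13 cell wall genes were called higher and 2 lower, and 2 autophagy genes higher and 0 lower. These counts were 8 and 1 for conidiation, 3 and 5 for carbon derepression, 4 and 7 for nutrient acquisition, and 3 and 4 for oxidative stress. Fewer were called in the other lists.

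Membership of the group depended on single libraries. When each library was left out in turn, between 71 and 117 genes met the rule, and 64 to 95 of them were among the 100. The fewest were shared without L. All 12 selections kept 22 of the genes, among them NCU01011, NCU08655, NCU09955, NCU02404, NCU07401, NCU10572, gh47-2, fmf-1 and ccg-9. Without library I, the shallowest, 107 genes were selected, 80 of them among the 100.

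**Figure D5:**
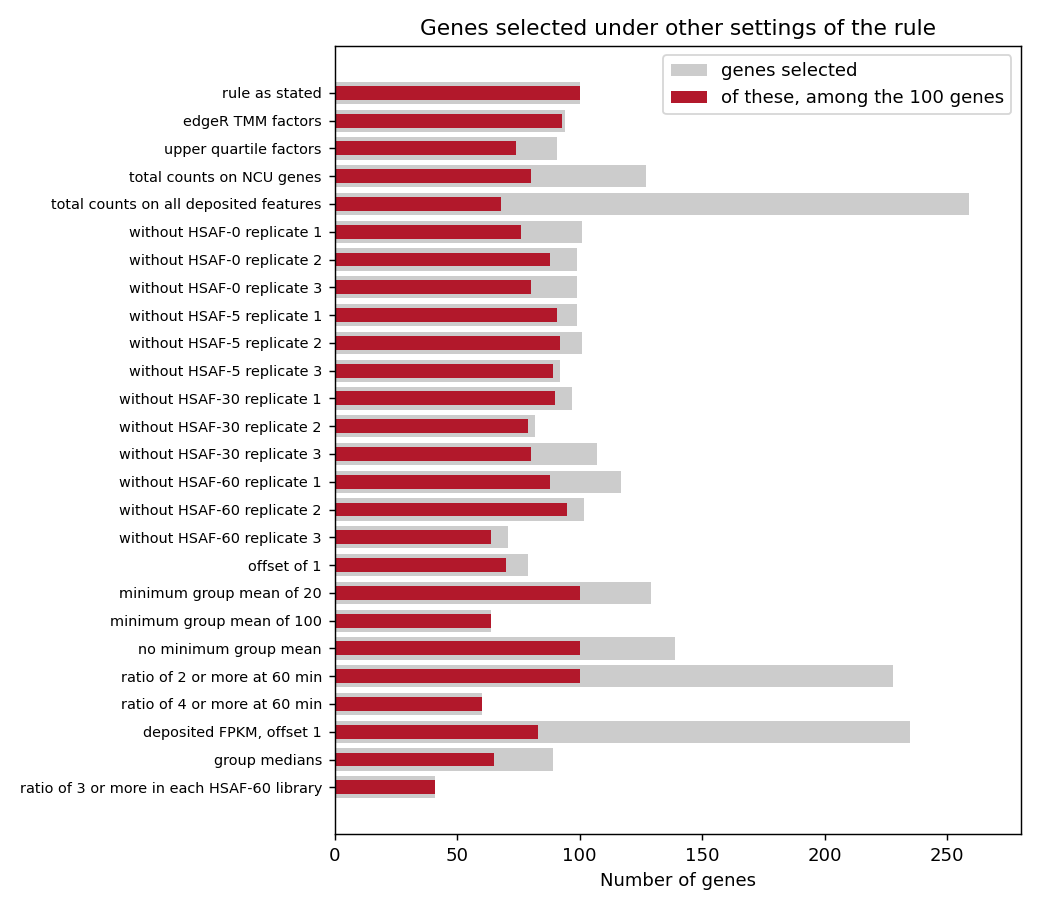
Number of genes selected by the rule (grey bars, from 0) and how many of them are among the 100 described (red bars), for the rule as stated and for each other setting. Leaving out single libraries gives 71 to 117 genes, and scaling by all deposited features gives 259.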

How the data were processed

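The authors trimmed the reads with Trimmomatic and deposited raw read counts per feature and FPKM per library. Aligner, counter and genome build: not given in the sources used here. How the 1680 newGene features were defined is likewise not stated. Libraries were made with a NEBNext Ultra kit. The sources name a pair of Illumina instruments without assigning libraries to them. Groups were taken from the treatment labels. Size factors were medians of ratios over the 5845 NCU genes with counts in all 12 libraries. The counts of NCU genes were fitted in R 4.3.3 with edgeR 4.0.16 (TMM, filterByExpr with a minimum count of 10, quasi-likelihood test over 12 libraries). DESeq2 1.42.0 served as an alternative. Other steps used Python 3.11.15, pandas 2.3.3 and numpy 2.4.6. The edgeR step was tested on simulated data. Lower bounds used a floor of 3 counts over the group. The SD covers the spread between libraries, which may be technical.

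Named genes were all late genes with a symbol, with an adjacent late gene or in a list of genes, the 12 with the largest ratio, the 6 with the highest counts at 60 min, the 3 on each side of the limit, and the 5 most like the median profile. Genes named outside this rule were chosen after their values were seen. The genes and lists were chosen with earlier results of these data known. Of the symbols in the lists, those absent from the RefSeq table were left out, which removed 30 of 32 for autophagy. Promoter and protein features had been planned and are not analysed here. Neighbours and overlapping genes were taken from the gene positions in the RefSeq table (NC12).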

Additional observations from a re-analysis of the deposited data

Results flagged for a closer look

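Of the newGene features, which take no part in the comparisons above, 7 of the 175 with a group mean of 50 or more met the same rule. They were noted because they lie outside the annotated genes. Their higher level at 60 min is what the rule asks for, so it is a description only. Their ratios at 60 min ran from 3.13 (newGene_473) to 26.7 (newGene_7). newGene_7 was at 139, 394 and 804 normalised counts in J, K and L.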

How the results depend on the processing

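No paired analysis was possible because letters, not replicate numbers common to the groups, name the libraries. The number of late genes was 94 with TMM factors, 91 with upper quartile factors and 127 with total counts on NCU genes, and 93, 74 and 80 of these were among the 100. It moved to 259 with total counts on all deposited features and to 235 on deposited FPKM (offset 1), and the cause was not tested. It was 64 with a minimum group mean of 100, 228 with a ratio of 2 or more at 60 min and 60 with a ratio of 4 or more. With a ratio of 3 or more in each HSAF-60 library, a setting chosen after seeing the data, it was 41. Leaving out 1 library gave 71 to 117 late genes, and 42 to 96 of the 100 called against HSAF-0, 44 to 70 against HSAF-30 and 46 to 80 against HSAF-5. These low ends came without C, L and L. Over all genes, 388 to 855 were called against HSAF-0, 745 to 1005 against HSAF-30 and 360 to 796 against HSAF-5. The other settings of the fit, among them DESeq2 with 95, 81 and 83 calls, stayed within 1.5 times the count of calls. Over all genes DESeq2 called 953, 1355 and 975. Upper quartile factors moved the median log2 fold change of all genes from 0.0020 to -0.14 at 60 min. For the ratios of the 31 named genes, 478 of 496 values under other settings lay within 1 SD of the HSAF-60 libraries. The lowest ratio was 1.89. Leaving out 1 of the 3 HSAF-60 libraries always moves their mean by less than this SD, so such settings could hardly fall outside it. NCU01011 fell from 54.2 to 16.3 without L and still counted as within it. Depth limits the weak genes most, through library I.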
